A study of Mus musculus with 1024 samples.

Results

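The genes described here are 10 genes of the major histocompatibility complex (MHC) class I pathway in single cells of the mouse aorta, out of 24422 genes in the count table. They were chosen by name for their known role in showing peptides to T cells, with earlier results of these data known. They are the heavy chains H2-K1 and H2-D1, the light chain B2m, the peptide transporter subunits Tap1 and Tap2, the loading chaperone Tapbp, the inducible proteasome subunits Psmb8, Psmb9 and Psmb10, and the transcriptional coactivator Nlrc5. Cells of the aortic luminal wall were depleted of Cd45+ cells, sorted into wells as Cd45- Cd31+ cells (labelled Endothelial) or Cd45- Cd31- cells (labelled DoubleNegative), and sequenced with Smart-seq2, which amplifies the polyadenylated RNA of 1 cell per well and carries no molecular identifiers. The labels give all wells 1 strain, Amotl2flow/flow / Cdh5-RREert /ROSA26-EYFP, and an age of 3 months, and separate WT from KO (amotl2 ec-/ec-) mice in 2 preparations each. In this model a tamoxifen-activated Cre under the Cdh5 promoter acts in endothelial cells (ECs) only and also switches on a yellow fluorescent reporter, so that Cd31- cells of KO mice keep amotl2. Whether the WT mice received tamoxifen was not given in the sources used here. The question put to these genes is how their level differs between ECs and other cells of the vessel wall, and between WT and KO.

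After wells with at least 20000 gene counts and 500 genes were kept, 784 of 1024 wells remained, 676 Cd31+ and 108 Cd31-. The Cd31+ wells comprised 235 WT and 302 KO wells of preparation 1, and 50 WT and 89 KO wells of preparation 2. The Cd31- wells comprised 42 WT and 40 KO wells of preparation 1, and 12 WT and 14 KO wells of preparation 2. Counts were added over the wells of 1 genotype, gate and preparation, which gave 8 sums of 926398 to 94881185 gene counts, and levels are CPM, counts per 1000000 gene counts in a sum. The labels name no mouse, so the replicate is the preparation, and p-values measure only the spread between 2 preparations of each genotype. In preparation 1 the WT and KO cells lay on separate plates, so that the genotype cannot be told apart from the plate, whereas in preparation 2 both lay on 1 plate. The reporter EYFP was at 113 and 85.5 CPM in the KO Cd31+ sums and at 2.38 and 0.35 CPM in the WT Cd31+ sums. Amotl2, counted over the whole gene and not over the deleted part, was at 51.9 and 45.7 CPM in KO and at 59.9 and 94.0 CPM in WT Cd31+ sums. Endothelial markers fixed as a list of 10 genes summed to 15150 to 17910 CPM in the Cd31+ sums and to 71.4 to 1325 CPM in the Cd31- sums. The highest of these Cd31- values, in WT preparation 2, came with 1 well that held 30900 CPM of endothelial markers. The Cd31- sums held 21630 to 54830 CPM of 8 smooth muscle markers and 5981 to 43430 CPM of 8 fibroblast markers. Of 14 leukocyte markers, 12 were at 0 in both WT Cd31+ sums, and the list summed to 5.55 to 11.8 CPM in the Cd31+ and 0 to 4.66 CPM in the Cd31- sums. The 4 haemoglobin genes were at 0 in all 8 sums.

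MHC class I molecules consist of a heavy chain and beta-2 microglobulin, and hold a short peptide made inside the cell. The proteasome cuts proteins into such peptides. In the immunoproteasome the subunits encoded by Psmb8, Psmb9 and Psmb10 replace those encoded by Psmb5, Psmb6 and Psmb7, which changes the cleavage preference. Tap1 and Tap2 pump the peptides into the endoplasmic reticulum, and tapasin, encoded by Tapbp, bridges the pump to the empty class I molecule. Nlrc5 has no DNA-binding site of its own and acts through a complex on the X and Y boxes of class I promoters, and interferon gamma raises the whole pathway. Endothelial cells are known to carry class I constitutively and to raise it under interferon.

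By the GENCODE M21 annotation of GRCm38, 7 of the 10 genes lie in the MHC on chromosome 17. H2-K1 spans chr17:33996017-34000347 on the minus strand and H2-D1 spans chr17:35262730-35267499 on the plus strand. Between them lie Psmb9 (chr17:34181987-34187764, minus strand), Tap1 (chr17:34187553-34197225, plus strand), Psmb8 (chr17:34197721-34201454, plus strand) and Tap2 (chr17:34203527-34216321, plus strand). Psmb9 and Tap1 overlap head to head at their 5' ends, and without strand information reads in the overlap could not be assigned to either. Tapbp lies at chr17:33915899-33929292 on the plus strand. B2m lies at chr2:122147686-122153083 on the plus strand, Psmb10 at chr8:105935735-105938444 on the minus strand and Nlrc5 at chr8:94434356-94527272 on the plus strand.

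The sequences upstream of the heavy chain and light chain genes are shown because the 3 genes had the highest levels and the closest co-expression of the set. They were taken from the RefSeq promoter table (GRCm38.p6), which held a window for 8 of the 10 genes. For H2-K1 the run covers the 200 bases before the RefSeq start (chr17:34000348-34000547, minus strand), and for B2m it covers 199 bases up to the GENCODE start (chr2:122147487-122147685, plus strand). For H2-D1, whose annotated transcript begins further upstream in GENCODE, 30 bases are shown (chr17:35262923-35262952, plus strand). Capitals mark matches to the 6 motifs described after the sequences.

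H2-K1: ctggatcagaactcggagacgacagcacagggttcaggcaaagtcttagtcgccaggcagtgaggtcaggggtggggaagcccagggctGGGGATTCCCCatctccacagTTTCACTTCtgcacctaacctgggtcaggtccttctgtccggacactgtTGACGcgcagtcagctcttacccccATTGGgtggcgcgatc
H2-D1: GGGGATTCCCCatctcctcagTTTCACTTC
B2m: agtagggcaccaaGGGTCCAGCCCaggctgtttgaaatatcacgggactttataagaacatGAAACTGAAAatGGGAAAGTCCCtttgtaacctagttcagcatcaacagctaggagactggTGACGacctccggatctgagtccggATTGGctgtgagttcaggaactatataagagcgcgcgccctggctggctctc

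The motifs were searched on both strands in the 250 bases before the start, and were chosen after the sequences had been seen. An NF-kB type match, GGGNNNNNCCC, was held by 5 of the 8 windows and by 12.2% of all 32851 promoters in the table. An interferon response element, GAANNGAAA, was held by 2 of the 8 (H2-K1 and H2-D1, as the reverse complement) and by 6.31% of all promoters. Its wider form GAAANNGAAA was held by B2m alone and by 2.98% of all, and the STAT type match TTCNNNGAA by Psmb8 alone and by 7.02% of all. The core of the X2 box, TGACG, was held by 5 of 8 and by 17.8% of all, and the core of the Y box, ATTGG, by 6 of 8 and by 33.8% of all. Psmb9 and Tap1, which lie head to head, are both in the NF-kB, X2 and Y counts. By position their windows share these sites, so each such site was counted for both genes. In H2-K1, H2-D1 and B2m alike the X2 core preceded a Y core by 25 bases. The NF-kB type match nearest to the X2 core began 70 bases before it in H2-K1 and H2-D1, and 49 bases before it in B2m. No motif overlapped another in the runs shown. A match describes the letters only.

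ECs carried every gene of the set, and at levels above the Cd31- cells of the same aortas. For all 10 genes, each of the 4 Cd31+ sums lay above each of the 4 Cd31- sums, a pattern met by 14.3% of the 16646 genes with counts. Of the 10 genes, 9 were higher in Cd31+ wells at an adjusted p under 0.05 in edgeR's quasi-likelihood test, where 9.79% of 12729 genes tested were called higher. The median log2 fold change was 2.90 over the 10 genes and 0.15 over all genes tested. Since the sums mix cells, fewer cells carrying a transcript and less of it per cell cannot be told apart in them. The plot of levels by sum shows each value.

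**Figure D1:**
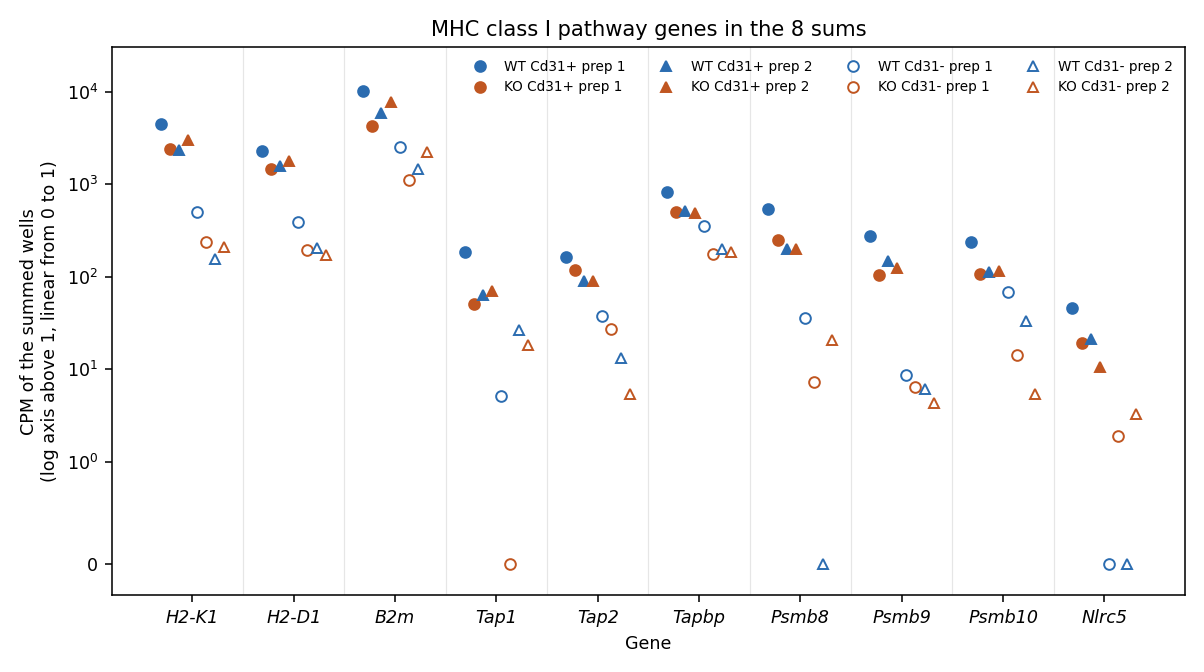
Level in CPM of the 10 class I pathway genes in the 8 sums of wells, on an axis that is logarithmic above 1 and linear from 0 to 1. Filled symbols are Cd31+ and open symbols Cd31- sums, circles preparation 1 and triangles preparation 2, blue WT and orange KO, and every filled symbol lies above every open symbol of its gene.

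H2-K1, a classical heavy chain, was at 4403 (WT preparation 1), 2386 (KO preparation 1), 2319 (WT preparation 2) and 2962 CPM (KO preparation 2) in Cd31+ sums. In Cd31- sums, in the same order, it was at 496, 238, 155 and 208 CPM. The groups did not overlap, the lowest Cd31+ sum being 4.67 times the highest Cd31- sum, and the log2 fold change was 3.37 (SE 0.43, edgeR adjusted p = 0.00106). H2-D1, the other classical heavy chain counted, was at 2264, 1471, 1558 and 1777 CPM in Cd31+ and at 388, 196, 206 and 171 CPM in Cd31- sums. Its difference was 2.81 on the log2 scale (SE 0.31, edgeR adjusted p = 0.000523), again with no overlap. Both heavy chains stand beside near-identical copies (H2-Q6 and H2-Q7 were listed at 0 to 0.12 CPM and H2-L at 3.88 to 6.76 CPM in Cd31+ sums), and reads with several alignments were left out of the counts, so the split of reads among the heavy chains is uncertain.

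B2m, the light chain shared by class I molecules, was at 10210, 4292, 5840 and 7690 CPM in Cd31+ and at 2530, 1098, 1461 and 2210 CPM in Cd31- sums. B2m was thus abundant on both sides of the gate, and the lowest Cd31+ sum was only 1.70 times the highest Cd31- sum. The log2 fold change was 1.83 (SE 0.39, edgeR adjusted p = 0.0123), smaller than that of either heavy chain. The call was lost without the KO Cd31- sum of preparation 1 (adjusted p = 0.0513).

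Of the loading machinery, Tap1 was at 185, 50.9, 63.7 and 69.7 CPM in Cd31+ and at 5.12, 0, 26.3 and 18.4 CPM in Cd31- sums. Its groups did not overlap, but its Cd31- sums spread widely and it was the 1 gene of the 10 not called (log2 fold change 2.99, SE 1.17, edgeR adjusted p = 0.118). In the WT Cd31- sum of preparation 2, 84.6% of the Tap1 counts came from 1 well. When wells were assigned by a Cdh5 count in addition to the gate, Tap1 in that sum was at 4.21 CPM and the difference was called (adjusted p = 0.046), as it was in thinned wells (0.0372), without the KO Cd31- sum of preparation 2 (0.00594) and with no filter on low counts (6.91e-09). Tap2, the partner of Tap1, was at 162, 119, 88.7 and 89.2 CPM in Cd31+ and at 37.2, 27.3, 13.2 and 5.40 CPM in Cd31- sums. The Tap2 difference was 2.31 on the log2 scale (SE 0.52, edgeR adjusted p = 0.0158), and was not called without the WT Cd31+ sum of preparation 1 (0.0576) or in wells of at least 100000 counts (0.0774).

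Tapbp was at 821, 493, 513 and 490 CPM in Cd31+ and at 353, 174, 198 and 182 CPM in Cd31- sums. This was the smallest difference of the 10, at 1.26 on the log2 scale (SE 0.29, edgeR adjusted p = 0.0178). The Tapbp call was lost without the WT Cd31+ sum of preparation 1 (0.0778), without the KO Cd31+ sum of preparation 1 (0.055) or 2 (0.065), without the KO Cd31- sum of preparation 1 (0.0651) and in wells of at least 100000 counts (0.0936).

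Of the inducible proteasome subunits, which replace the standard ones in the immunoproteasome, 3 of 3 were higher in ECs. Psmb9 was at 273, 104, 146 and 124 CPM in Cd31+ and at 8.74, 6.47, 6.07 and 4.32 CPM in Cd31- sums. Its lowest Cd31+ sum was 11.9 times its highest Cd31- sum, and the log2 fold change of 4.44 (SE 0.38) had the smallest adjusted p of the set, 0.000223 in edgeR. Psmb8 was at 531, 246, 199 and 199 CPM in Cd31+ and at 35.3, 7.21, 0 and 20.5 CPM in Cd31- sums. Its log2 fold change was 4.06 (SE 0.87, edgeR adjusted p = 0.0127), and was not called without the KO Cd31- sum of preparation 1 (0.0644). Psmb10 was at 235, 106, 113 and 116 CPM in Cd31+ and at 68.0, 14.3, 33.4 and 5.40 CPM in Cd31- sums, with a log2 fold change of 2.47 (SE 0.42, edgeR adjusted p = 0.00464). Per kilobase the mean Cd31- level was 23.1 CPM for Psmb10, 9.67 CPM for Psmb8 and 4.73 CPM for Psmb9. Psmb10 was thus highest of the 3 on this mean, but not in each sum. In the KO Cd31- sum of preparation 2, Psmb8 (12.6 CPM per kilobase) lay above Psmb10 (4.12). In the WT Cd31- sum of preparation 2, 81.8% of the Psmb10 counts came from 1 well.

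Nlrc5, the coactivator, was at 46.2, 19.1, 21.1 and 10.6 CPM in Cd31+ sums. In Cd31- cells it was at 0 in both WT sums and at 1.91 and 3.24 CPM in the KO sums, each from 1 well, with 21 counts in all. Pooled over wells, the level was 25.8 CPM in Cd31+ and 1.17 CPM in Cd31- wells, a ratio of 22.1, and the difference was called (edgeR adjusted p = 0.00324). H2-K1, H2-D1, Psmb9, Psmb10 and Nlrc5 were called higher in Cd31+ wells under every alternative run.

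Among the other pathway genes, taken from lists, those that process peptides in every cell did not follow the gate. The lists too were chosen with earlier results of these data known. Of the 3 standard catalytic subunits, 0 were called by edgeR in either direction, with log2 fold changes of −0.46 (SE 0.37) for Psmb5, −0.33 (SE 0.25) for Psmb6 and −0.06 (SE 0.30) for Psmb7, and 0 of 14 other core and assembly genes were called. In neither list did a gene have an unadjusted p under 0.05. Of 4 proteasome activators 2 were called higher, the interferon-inducible cap subunits Psme1 (2.54, SE 0.27, edgeR adjusted p = 0.000475) and Psme2 (1.00, SE 0.25, adjusted p = 0.0245). Of 11 further class I heavy chain genes tested 5 were higher and 0 lower, and of 11 trimming and loading chaperones 2 were higher and 1 lower. The names that follow, other than Psme1, were chosen after their values were seen. The heavy chains called were H2-Q4 (3.80), H2-T24 (4.53), H2-T10 (3.54), H2-M3 (2.68) and Hfe (3.32), the last an iron-regulating class I-like molecule. The chaperones higher in ECs were the tapasin relative Tapbpl (2.16) and the peptide-trimming enzyme Erap1 (1.41).

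Of 12 interferon gamma signalling genes 1 was higher and 2 were lower. The ligand-binding receptor chain Ifngr1 was at 639 to 886 CPM in Cd31+ and 50.7 to 207 CPM in Cd31- sums (log2 fold change 2.53, SE 0.31, edgeR adjusted p = 0.00086). Its partner chain Ifngr2 went the other way (−2.27, SE 0.34, adjusted p = 0.0025), as did the feedback inhibitor Socs3 (−2.78, SE 0.60, adjusted p = 0.0128). Of the 8 genes of the complex through which Nlrc5 acts 0 were called (0 also at an unadjusted p under 0.05). Ciita, the related coactivator of class II promoters, was called and was at 1.65 to 23.98 CPM in Cd31+ sums and at 0 in all 4 Cd31- sums. Other called counts were 0 of 5 NF-kB genes (0 also at an unadjusted p under 0.05), 5 of 6 MHC class II genes, 12 of 14 interferon gamma-induced GTPases and 4 of 13 type I interferon-stimulated genes, all of those called being higher. Markers of the gate moved with it. All 10 endothelial markers (such as Tek, at 529 to 966 CPM in Cd31+ and 0 to 11.5 CPM in Cd31- sums) were higher, and all 8 smooth muscle (such as Actg2, Acta2, Tagln, Myl9 and Smtn) and 7 of 8 fibroblast markers (such as Col1a2) were lower. Of 2 leukocyte markers tested 1 was higher, and of 12 genes raised by tissue dissociation 4 were lower. Their part in the class I difference was not tested.

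Within ECs the genes of the set spanned over 3 orders of magnitude per length. On CPM per kilobase of the principal transcript, the mean of the 4 Cd31+ sums was 8150 ± 2962 (SD, n = 4) for B2m, 1864 ± 598 for H2-K1 and 841 ± 169 for H2-D1. Tapbp followed at 200 ± 55.7, Psmb8 at 181 ± 98.2, Psmb9 at 120 ± 56.2 and Psmb10 at 109 ± 47.0. The ranges of these 4 neighbours overlapped, but within each of the 4 sums Tapbp and Psmb8 lay above Psmb9 and Psmb10. Tap2 at 33.3 ± 9.97 and Tap1 at 31.3 ± 21.1 likewise overlapped each other, and both lay below the 4 genes before them. Nlrc5 was lowest, at 3.20 ± 2.02. No sum of B2m, H2-K1 or H2-D1 overlapped the gene next to it in this order.

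The share of wells with a count differed among the members, the most abundant being counted in nearly every EC. B2m, H2-K1 and H2-D1 were counted in at least 99.1% of wells of each Cd31+ group, and Tapbp in at least 96.0%. Psmb8 was counted in 94.0% of WT wells of preparation 1 (95% exact interval 90.2 to 96.7), in 83.1% of KO wells (78.4 to 87.2), and in preparation 2 in 98.0% of WT (89.4 to 99.9) and 89.9% of KO wells (81.7 to 95.3). Nlrc5 was counted in 46.0% (39.5 to 52.6), 16.2% (12.3 to 20.9), 26.0% (14.6 to 40.3) and 24.7% (16.2 to 35.0) in the same order. Such shares depend on depth, that of Nlrc5 in WT preparation 1 being 28.9% in wells thinned to 20000 counts and 57.4% in wells of at least 100000, so they do not tell wells without the transcript from wells where it was missed. Intervals cover counting error only, and the medians of gene counts per well differed, at 119656 (WT) and 252839 (KO) in preparation 1 and 161532.5 (WT) and 58190 (KO) in preparation 2.

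With each well thinned to 20000 counts, which left out no kept well, Psmb9 was counted in 82.6% of WT and 60.9% of KO Cd31+ wells of preparation 1, and in 82.0% and 70.8% of preparation 2. Tap1 was counted in 60.9%, 29.5%, 62.0% and 46.1%, against 73.2%, 38.7%, 76.0% and 59.6% without thinning. For both genes the WT groups lay close together and the KO group of preparation 1 was lowest. Before thinning, the wells of that KO group were the deepest but held the fewest genes. Their median was 3314 genes, against 3774 to 5501.5 in the other Cd31+ groups, and its part in the shares was not tested. Of 10 genes, the median thinned Cd31+ well held 8 in WT preparation 1, 7 in KO preparation 1 and 8 in both groups of preparation 2. Thinned Cd31- wells held a median of 3 to 4, and each of the 784 wells held at least 1.

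Cd31- wells with a count of the rarer members were few. Tap1 was counted in 5 of 42 WT and 0 of 40 KO wells of preparation 1, the latter allowing a share of up to 7.50%, and in 3 of 12 WT and 2 of 14 KO wells of preparation 2. Psmb8 was counted in 14 of 42, 4 of 40, 0 of 12 and 1 of 14 wells, the 0 allowing up to 25%. Nlrc5 was counted in 0 of 42 (allowing up to 7.14%), 1 of 40, 0 of 12 and 1 of 14 wells. B2m, by contrast, was counted in 97.5% to 100% of the wells of each Cd31- group.

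WT ECs of preparation 1 held the highest level of every gene in the set, and the genotype difference depended on the preparation. For 10 of 10 genes the highest of the 4 Cd31+ sums was WT preparation 1, as it was for 25.6% of the 8473 genes at a mean of 10 CPM or more. It exceeded the other 3 sums by factors from 1.27 (H2-D1, against KO preparation 2) to 4.35 (Nlrc5, against KO preparation 2). Among the other 3 sums the highest and the lowest differed by a factor of 1.05 (Tapbp) to 1.99 (Nlrc5). Summed over the 10 genes, the level was 19130 CPM in WT and 9286 CPM in KO of preparation 1, and 10860 CPM in WT and 13530 CPM in KO of preparation 2.

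Within preparation 1, where plate and genotype coincide, KO was lower than WT for 10 of 10 genes and for 42.3% of all genes at 10 CPM or more. The median log2 difference was −1.13 over the set and 0.09 over all genes. For 6 of the 10 (B2m, Tap1, Psmb8, Psmb9, Psmb10 and Nlrc5) the KO level was at most 1 part in 2 of the WT level, a drop met by 3.17% of all genes. Within preparation 2, where both genotypes shared a plate, KO was lower for 4 of 10 genes and for 55.7% of all genes, with medians of 0.03 for the set and −0.07 for all genes. The differences in preparations 1 and 2 were −0.88 and 0.35 for H2-K1, −1.25 and 0.40 for B2m, and −1.86 and 0.13 for Tap1. Nlrc5 (−1.28 and −0.99) and Psmb9 (−1.39 and −0.23) were lower in KO in both. The plot of differences by preparation shows the 10 pairs.

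**Figure D2:**
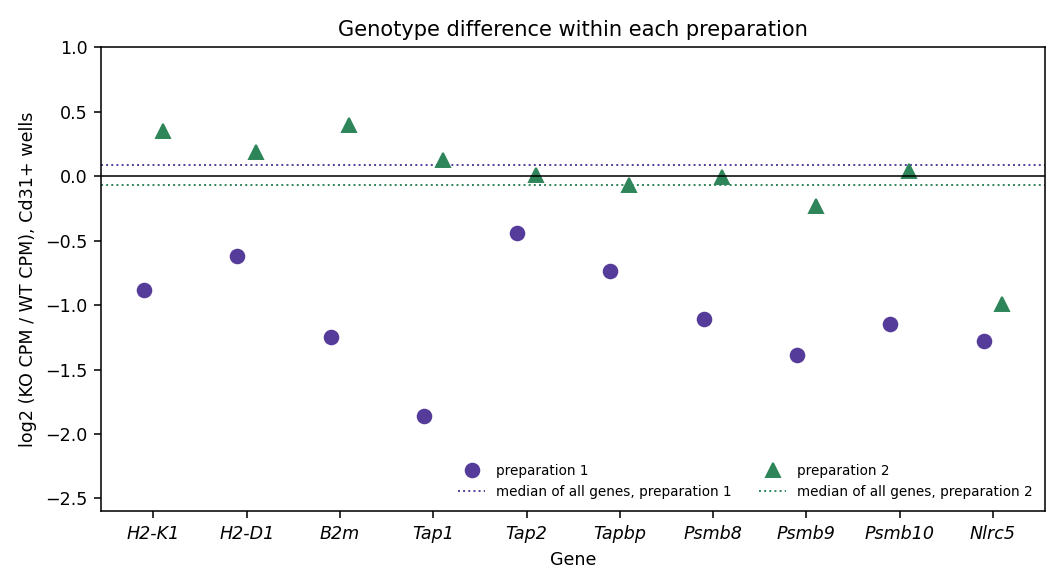
Difference between KO and WT Cd31+ sums for each gene, as log2 of the ratio of CPM, in preparation 1 (purple circles) and preparation 2 (green triangles), with 1 sum per genotype in each. Dotted lines are the medians of all genes at 10 CPM or more, at 0.09 and −0.07. All 10 circles lie below 0, and the triangles lie between −0.99 and 0.40.

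Across both preparations, edgeR called 0 of 12702 genes between KO and WT Cd31+ sums (0%), and hence 0 of the 10. Without adjustment 468 genes had a p under 0.05, 2 of them in the set (Psmb9, p = 0.0303, and Nlrc5, p = 0.0357), and DESeq2 called 37, none of them in the set. All 10 log2 fold changes were below 0, with a median of −0.53 over the set and 0.003 over all genes tested. They were −0.30 (SE 0.34) for H2-K1, −0.21 (SE 0.29) for H2-D1 and −0.38 (SE 0.38) for B2m. For Tap1 the change was −1.02 (SE 0.46), for Tap2 −0.26 (SE 0.32) and for Tapbp −0.43 (SE 0.29). For Psmb8 it was −0.71 (SE 0.40), for Psmb9 −0.85 (SE 0.33), for Psmb10 −0.63 (SE 0.35) and for Nlrc5 −1.18 (SE 0.48), each with an edgeR adjusted p of 0.9995.

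The direction rested on WT preparation 1. Without that sum, the change turned positive for H2-K1 (0.20), H2-D1 (0.05), B2m (0.04), Tap2 (0.20) and Psmb8 (0.13), and stayed below 0 for the other 5, Nlrc5 being furthest at −0.54. Without KO preparation 1 it turned positive for H2-D1 (0.005) and B2m (0.05). Without WT preparation 2, the fit assumed WT preparation 1, then the only WT sum, to vary like the KO sums. The change stayed below 0 for every gene of the set, from −0.439 (H2-D1) to −1.62 (Nlrc5).

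Most interferon gamma-induced genes were also highest in that sum. This held for 7 of 7 MHC class II genes and 13 of 14 GTPases (Gbp9 being highest in WT preparation 2), for 11 of 14 type I interferon-stimulated genes and for 7 of 12 interferon gamma signalling genes (not Ifngr1, Ifngr2, Jak1, Jak2 and Socs3). In WT preparation 1 the 7 MHC class II genes summed to 6500 CPM, against 144 to 347 CPM in the other Cd31+ sums, and the 14 interferon gamma-induced GTPases to 7263 CPM against 1587 to 2161 CPM. The class II invariant chain Cd74 was at 3066, 27.7, 27.4 and 59.9 CPM (WT and KO of preparation 1, then WT and KO of preparation 2), and the GTPase Iigp1 at 1358, 233, 391 and 304 CPM. Irf1, a transcription factor induced by interferon gamma, was at 372, 192, 190 and 155 CPM. The type I interferon-stimulated genes differed less, at 867 CPM against 565 to 599 CPM.

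None of these lists held a call between KO and WT. The median log2 fold change was −3.32 for MHC class II (6 of 6 tested below 0, Cd74 −5.09 with SE 1.52, H2-Aa −3.36 with SE 0.95) and −1.32 for the GTPases (14 of 14, Iigp1 −1.67 with SE 0.49, Gbp2 −1.40 with SE 0.53). It was −0.61 for interferon gamma signalling (9 of 12 below 0, Ifngr1 0.26 with SE 0.25, Irf1 −0.69 with SE 0.33) and −0.50 for type I interferon-stimulated genes (13 of 14, Bst2 −0.19 with SE 0.32, Rtp4 −0.37 with SE 0.28). For the other class I heavy chains it was −0.38 (10 of 13, H2-T23 −0.49 with SE 0.34, Hfe 0.28 with SE 0.32) and for the proteasome activators −0.35 (3 of 4, Psme1 −0.47 with SE 0.25, Psme2 −0.23 with SE 0.26). Lists that serve every cell lay near the median of all genes, at −0.02 for the standard catalytic subunits (Psmb6 −0.02 with SE 0.26, Psmb7 0.04 with SE 0.28), 0.03 for the other core and assembly genes and −0.03 for the chaperones. The genes of the Nlrc5 complex together with Ciita had a median of −0.21 and the NF-kB genes of 0.11. All adjusted p values named here were 0.9995 in edgeR, with 0 called in every list. Without adjustment, 10 of 14 GTPases, 5 of 6 class II genes, 1 of 12 interferon gamma signalling genes, 1 of 14 type I genes, 1 of the 9 genes of the Nlrc5 complex and Ciita (Ciita itself) and 0 genes of the other lists named had a p under 0.05.

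Other cells and handling were measured beside this. Endothelial markers were at 17910 CPM in WT preparation 1 and 15150 to 15840 CPM in the other Cd31+ sums, smooth muscle markers at 1302 against 775 to 1732 CPM and fibroblast markers at 518 against 538 to 978 CPM. Leukocyte markers were at 11.8 CPM against 5.55 to 9.56 CPM, with 12 of 14 at 0, and genes raised by dissociation at 2826 CPM against 2112 to 5116 CPM, the highest in WT preparation 2. Of 4 Y-linked genes the sum was 219 CPM against 212 to 286 CPM, so male cells were in every sum. Between KO and WT Cd31+ sums the median log2 fold change was −0.75 for the dissociation genes (12 of 12 below 0), 0.73 for smooth muscle, 0.72 for fibroblast, −0.50 for leukocyte (3 of 14 tested) and −0.02 for endothelial markers, with 0 called in edgeR. Without adjustment 4 of 12 dissociation genes, 3 of 8 fibroblast, 1 of 8 smooth muscle, 1 of 3 leukocyte and 0 of 10 endothelial markers had a p under 0.05. The part of these in the class I levels was not tested. All 10 genes were also highest in WT preparation 1 on the mean over wells, in thinned wells, in wells of at least 100000 counts and with wells assigned by Cdh5.

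The difference was also seen in single wells, apart from the lowest ones. The summed CPM of the 10 genes had a median of 21240 per well in WT preparation 1 (quartiles 14970 and 24350) and of 9124 in KO preparation 1 (6933 and 11680). In preparation 2 it was 11110 in WT (9645 and 13240) and 13340 in KO wells (11520 and 15590). The lower quartile of WT preparation 1 thus lay above the upper quartiles of KO preparation 1 and WT preparation 2. Its 10th percentile, however, was 8624 CPM, below the 9430 CPM of KO preparation 2, and its lowest well was at 922 CPM. Class II differed in form, with a median of 4606 CPM and an upper quartile of 10300 CPM in WT preparation 1 and medians of 0, 36.0 and 226 CPM in the other Cd31+ groups. Cd31- wells had class I medians of 1517 to 3401 CPM.

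**Figure D3:**
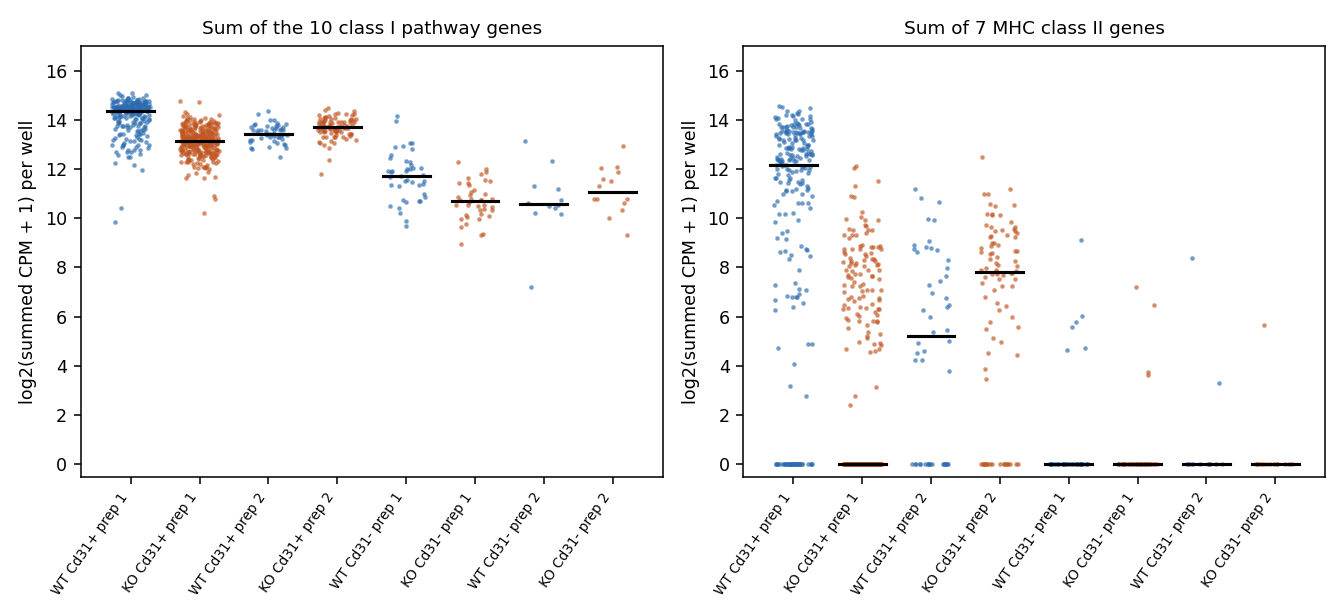
Summed CPM of the 10 class I pathway genes (left) and of 7 MHC class II genes (right) in each well, as log2(CPM + 1), by genotype, gate and preparation. Each point is 1 well, blue WT and orange KO, and black bars are medians. The class I medians of the Cd31+ groups correspond to 21240, 9124, 11110 and 13340 CPM, and many wells hold no class II count.

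The genes varied together over ECs, but loosely. Spearman's rho between CPM values was taken within each of the 4 Cd31+ groups and averaged, as a description over wells that share a library preparation and a plate. Of 45 pairs 44 were above 0, with a median of 0.177. Over 20037615 pairs of 6331 genes the median was 0.0422 and the 90th percentile 0.11, which 38 of the 45 pairs exceeded. By group the median over the 45 pairs was 0.325 in WT preparation 1, 0.135 in KO preparation 1, 0.156 in WT preparation 2 and 0.0768 in KO preparation 2. The median was 0.143 in thinned wells.

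The heavy and light chains were closest. H2-K1 and H2-D1 had a rho of 0.544, a pair whose split of reads is uncertain as stated, H2-D1 and B2m 0.495 and H2-K1 and B2m 0.474. The next pairs were Tap1 with Psmb9 (0.264), which overlap and lie head to head, and Tapbp with Psmb8 (0.244). With the sum of the other 9 genes, H2-D1 had 0.574, B2m 0.544 and H2-K1 0.534, Psmb8, Tap1 and Psmb9 0.243 to 0.258, Tapbp 0.191, Tap2 0.126, Psmb10 0.102 and Nlrc5 0.0708. The coactivator was thus the least tied to the rest over wells, and it was also the gene counted in the fewest wells.

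**Figure D4:**
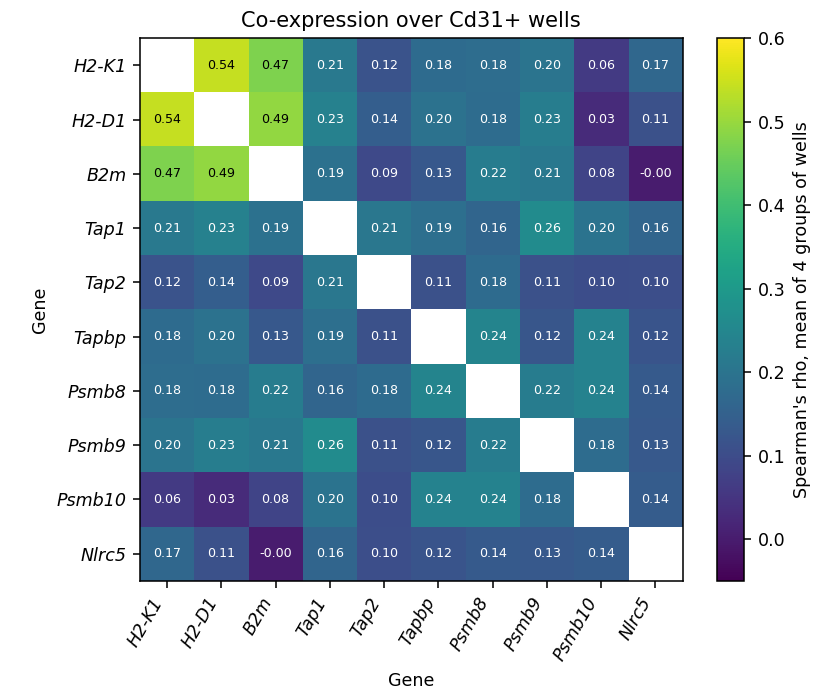
Spearman's rho of each pair of the 10 genes over Cd31+ wells, averaged over the 4 groups of genotype and preparation (colour scale from below 0 to 0.6, value in each cell). H2-K1, H2-D1 and B2m form a block of 0.474 to 0.544, and the other pairs lie from −0.0013 (B2m with Nlrc5) to 0.264.

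Likeness to the sum of the set was ranked among 6331 genes counted in at least 20% of wells in each of the 4 Cd31+ groups. Of the 7 MHC class II genes 0 met this rule, so they could not enter the ranking. The genes outside the set that most resembled its sum were Gbp2 (0.366), Tgtp2 (0.36), Igtp (0.332), H2-Q4 (0.328), Ly6e (0.322), Ifi47 (0.312), Iigp1 (0.312), Gbp3 (0.308), Ifitm3 (0.295) and Gbp7 (0.287). Likeness is the mean of rho over the 4 groups, and the sum is weighted towards B2m. Of these 10 genes 8 stood in a list used here, 7 of them among the GTPases, whose median over 13 genes was 0.287, against −0.00491 over all genes. Psme2 had 0.226, while the 3 standard catalytic subunits had a median of −0.0281.

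By well, the summed class I level went with the summed class II level at a rho of 0.684 in WT preparation 1, 0.243 in KO preparation 1, 0.435 in WT preparation 2 and 0.282 in KO preparation 2. With the summed GTPases rho was 0.643, 0.453, 0.381 and 0.267 in the same order. All 8 values were above 0, and both were highest in WT preparation 1. With the endothelial markers rho was −0.0603 to 0.142, with the dissociation genes −0.354 to 0.0722 and with the gene counts of the well −0.184 to −0.108.

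The balance between inducible and standard proteasome subunits separated the gates without overlap. Per kilobase, the 3 inducible subunits together were at 1.51, 0.722, 0.988 and 0.855 times the 3 standard ones in Cd31+ sums (WT and KO of preparation 1, then WT and KO of preparation 2). In Cd31- sums the ratio was 0.189, 0.0390, 0.0665 and 0.0489. Inducible transcripts thus made up 60.1%, 41.9%, 49.7% and 46.1% of the 6 subunits in ECs and 15.9%, 3.75%, 6.23% and 4.66% in Cd31- cells. WT lay above KO on both sides of the gate in both preparations, but the Cd31- value of WT preparation 2 leaned on 1 well. In that sum Psmb8 was at 0, and 81.8% of the Psmb10 counts came from 1 well. With wells assigned by Cdh5, Psmb10 there fell from 33.4 to 6.32 CPM, against 5.40 CPM in KO. Psmb8 stayed at 0, against 20.5 CPM in KO. In wells of at least 100000 counts, however, the Cd31- ratio of preparation 2 was 0.0152 in WT and 0.0741 in KO.

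Each subunit against the one it replaces had a level of its own. Psmb8 over Psmb5 was at 4.38, 2.44, 3.56 and 2.74 in Cd31+ sums and at 0.260, 0.0532, 0 and 0.233 in Cd31- sums. Psmb10 over Psmb7 was at 1.98, 0.944, 1.37 and 1.23 against 0.549, 0.132, 0.311 and 0.0941. Psmb9 over Psmb6 was at 0.663, 0.274, 0.483 and 0.386 against 0.0264, 0.0137, 0.0142 and 0.0103. In ECs the Psmb8 transcript thus exceeded that of Psmb5 in all 4 sums, whereas Psmb9 stayed below Psmb6 in all 4. WT was above KO for each of the 3 ratios in both preparations in ECs, with no test run on the ratios. In preparation 2 the level of Psmb8 was 199 CPM in both genotypes and that of Psmb10 was 113 (WT) and 116 CPM (KO). These 2 ratios differed there because the standard subunits Psmb5 (30.88 and 40.02 CPM) and Psmb7 (72.9 and 83.5 CPM) were higher in KO.

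**Figure D5:**
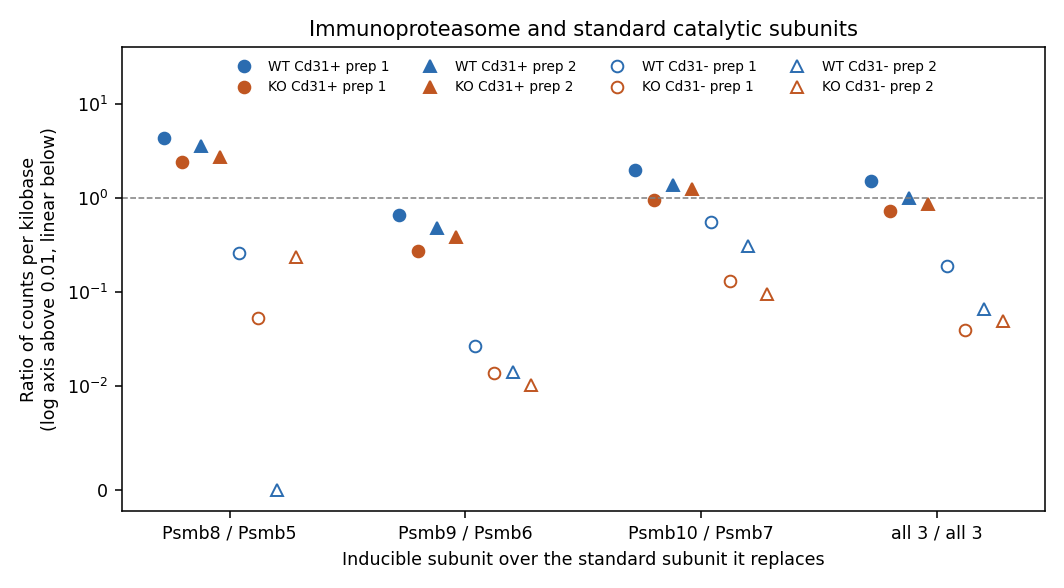
Ratio of each inducible proteasome subunit to the standard subunit it replaces, on counts per kilobase, in the 8 sums (axis logarithmic above 0.01 and linear below, dashed line at a ratio of 1). Symbols are as in the plot of levels by sum. Within each ratio all Cd31+ values lie above all Cd31- values, and Psmb8 over Psmb5 lies between 2.44 and 4.38 in Cd31+ sums.

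In Cd31- cells, which keep amotl2 in KO mice, edgeR called 0 of 12729 genes between KO and WT (0%). Without adjustment 1130 had a p under 0.05, and DESeq2 called 189. Of the 10 genes again 0 were called in either tool, and 2 (Psmb10 and Nlrc5) had an unadjusted edgeR p under 0.05. That of Nlrc5 rested on 21 Cd31- counts, with 0 in both WT sums. Psmb10 had the smallest p of the genes with counts in both groups. It was at 68.0 and 33.4 CPM in the WT sums and at 14.3 and 5.40 CPM in the KO sums. Its log2 fold change was −2.24 (SE 0.61, edgeR adjusted p = 0.489). With no filter on low counts the adjusted p was 0.0126 in edgeR, and in DESeq2 it was 0.0524. In the WT sum of preparation 2, however, 81.8% of the Psmb10 counts came from 1 well. With wells assigned by Cdh5 the level in that sum was 6.32 CPM, below the 14.7 CPM of KO preparation 1.

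In preparation 1 KO was lower than WT for 9 of the 10 genes, Nlrc5 being at 0 in WT, and for 49.0% of the 8288 genes at a mean of 10 CPM or more in Cd31- sums. In preparation 2 it was lower for 6 of 10 and for 53.8% of those genes. With wells assigned by Cdh5, which left 1 well out of the WT sum of preparation 2, KO was lower there for only 3 of 10 (Tap2, Psmb9 and Psmb10), and H2-D1 stood at 117 CPM (WT) against 171 CPM (KO). WT preparation 1 was the highest Cd31- sum for 8 of 10 genes and for 27.1% of those at 10 CPM or more. The fibroblast markers were also highest there, at 43430 CPM against 19320 CPM in KO of the same preparation and 5981 and 11010 CPM in WT and KO of preparation 2, and their part was not tested. A test of whether the genotype difference was unlike between the gates called 0 of 12729 genes (0%) in edgeR. Without adjustment 657 had a p under 0.05, and DESeq2 called 46. Of the 10 genes 0 were called in either tool, and 1 (Nlrc5) had an unadjusted edgeR p under 0.05. Nlrc5 was at 0 in both WT Cd31- sums, with 21 Cd31- counts in all, so that p carries little weight.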

How the data were processed

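Single wells were measured by Smart-seq2. Per the labels and the study's methods, the authors aligned reads with STAR 2.7.7a to GRCm38 with spike-in and reporter sequences, removed duplicates with Picard 2.22.0 and assigned reads to genes with HTSeq 0.9.1, and they deposited whole-number counts per gene and well without normalization. Of all counts 51.9% were on 24422 genes, 1.25% on 92 spike-ins and 46.9% on 5 summary lines (32.0% with several alignments), which were left out. Of the symbols 95.7% were found in GENCODE M21. Groups came from the labels.

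Wells of at least 20000 gene counts and 500 genes were kept, without a doublet caller, and counts were summed per genotype, gate and preparation. Sums held 8470943 to 94881185 counts in Cd31+ and 926398 to 9435015 in Cd31- wells, and both their number and their depth limit precision. KO was compared with WT in each gate, the gates with each other, and the genotype difference between gates, with edgeR 4.0.16 in R 4.3.3 (glmQLFit and glmQLFTest, TMM, filterByExpr, Benjamini-Hochberg adjustment over all genes, threshold 0.05). The edgeR test was checked on simulated data. Alternatives were DESeq2 1.42.0, RLE factors, no filter on low counts, each sum left out, all 8 sums in 1 fit, and a block. Others were wells of at least 100000 counts, wells thinned to 20000 counts and wells assigned by Cdh5. The main fits had no block. As an alternative the block was the preparation, or the suspension (genotype and preparation) where the gates were compared. The labels give a shared preparation number, and after removal of group means the Cd31+ sums of 1 preparation correlated by 0.142, and the gates of 1 suspension by 0.0444 (KO) and 0.0635 (WT). Levels per length used the principal transcript. Shares have 95% exact (Clopper-Pearson) intervals, and beside a share of 0 stands what 3 wells would make of the group. Python values used numpy 2.4.6, pandas 2.3.3, scipy 1.17.1 and matplotlib 3.10.9.

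The 10 genes and the gene lists were chosen with earlier results of these data known. Named are the 10 genes, genes of the lists past the threshold (up to 8 per comparison, by adjusted p), the 2 of highest level in a list where none passed, the 10 genes most alike, and others that the text names as chosen after their values were seen. The count of genes highest in WT preparation 1 under other settings, and the union of exons as the length, were added after seeing the data. Exon-level deletion of Amotl2 was not analysed here. Values of 1 listed gene are not reported here.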

Additional observations from a re-analysis of the deposited data

Results flagged for a closer look

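For 6 of 20 sets of 4 sums (the 10 genes in each gate), 1 sum stood apart from the other 3 by more than Dixon's 95% critical ratio for 4 values, the ratio being the gap to the nearest sum divided by the range of the 4. Chance alone gives about 1 in 20 sets, but the ratio was not taken over all genes, so their share is not known. In each of the 6 the sum apart was WT preparation 1 and was the highest. Among Cd31+ sums the ratio was 0.86 for Tap1, 0.932 for Tapbp, 0.858 for Psmb8 and 0.918 for Psmb10. Among Cd31- sums it was 0.84 for H2-D1 and 0.862 for Tapbp. The sets are not independent, since the genes share their sums, and in preparation 1 the genotype and the plate cannot be told apart.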

How the results depend on the processing

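Depth, 2 preparations per genotype and 12 to 42 wells in the Cd31- sums limit these results. Between KO and WT Cd31+ sums, where edgeR called 0 genes, 1 was called with RLE factors, 104 with no filter on low counts, 37 by DESeq2, 8 in wells thinned to 20000 counts, 1 with wells assigned by Cdh5, and 5 to 311 with 1 sum left out. With the preparation as a replicate block 1 gene was called, none of the 10. Where the gates were compared, the block was the suspension (genotype and preparation), since both gates came from it. With that block 1779 genes were called between the gates, against 2423 in the main fit, which left the gates unpaired. Neither block changed a call of the 10 in any comparison. The log2 change with 1 sum left out ranged from −0.678 to 0.196 for H2-K1, −0.459 to 0.0494 for H2-D1 and −0.982 to 0.0505 for B2m. For Tap2 it ranged from −0.615 to 0.203 and for Psmb8 from −1.23 to 0.134. It stayed below 0 in each such refit for Tap1 (−1.58 to −0.0912), Tapbp (−0.708 to −0.0792) and Psmb9 (−1.22 to −0.367). The same held for Psmb10 (−1.05 to −0.0421) and Nlrc5 (−1.62 to −0.535). Between the gates, 2423 genes were called, and 1355 to 2542 with 1 sum left out, the 4 lowest counts each without a Cd31+ sum. Between KO and WT Cd31- sums 218 were called with no filter, 189 by DESeq2 and 0 to 48 with 1 sum left out (48 without WT preparation 1, 1 without WT preparation 2). For the difference between gates these were 163, 46 and 0 to 42. The median share of Cd31+ wells with a count was 91.2%, and 81.0% in thinned wells. The causes were not tested. Of 291 alternatives for single genes, 265 were the same, 10 passed the threshold, 9 lost it and 7 turned direction. Among the 265 are 10 levels taken as the mean over wells, each within 1 SD of the main level. The rest of the 265 were refits that kept direction and side of the threshold.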
